A study of Mus musculus with 2 samples.

Results

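Rab genes encode small GTPases of the Ras superfamily that give intracellular membranes their identity, and 59 of them were examined in the open chromatin of mouse blood neutrophils. Membership was set by symbol, as protein-coding genes of GENCODE release M21 named Rab, a number and at most a letter and a digit. Protein-coding genes numbered 21911 in all, and the members were chosen with earlier results of these data known. Neutrophils, short-lived phagocytes, were taken from the blood of adult mice (strain C57BL/6J, 5 to 6 weeks old), and no genotype or treatment other than the strain was given. ATAC-seq, in which a transposase cuts and tags accessible DNA, was applied to 50000 cells per library. The series holds 2 libraries of this 1 group, replicates 1 and 2, with no second condition. Both trace to the same donor record through separate biosample records, and the labels do not say that separate mice were used, so the spread between them may be technical.

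A Rab protein switches between a GTP-bound form on a membrane and a GDP-bound form that is drawn into the cytosol. Exchange factors load GTP, GTPase-activating proteins speed its hydrolysis, and effectors such as tethers, motors and fusion proteins bind the active form. A lipid anchor added by a geranylgeranyl transferase holds the protein on its membrane. In neutrophils, Rab proteins guide granules to the plasma membrane and carry phagosomes through their maturation, and Rab27a is known for its part in the release of granule contents.

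The values are the authors' peak lists, on mm10 (GRCm38). A promoter is called open below where a peak thresholded by the irreproducible discovery rate (IDR) overlaps 1 kb on either side of any annotated start site, and open in both replicates where this holds in each list. A distal region has its summit over 1 kb from every annotated start site, and at most 50 kb separate it from the 5′-most start of the gene. The signal value of a peak is the authors' score, without a stated definition, and it serves to order and describe peaks of the same list. Signal values of the replicates stand side by side below, but their scales may differ. Library depth is unknown, because no read counts were used. In bulk libraries, open chromatin in a few cells and weakly open chromatin in all cells cannot be told apart.

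The libraries were checked against marker genes. All 12 neutrophil markers had an open promoter in replicate 1 (against 47.1% of all genes) and 6 of 12 in replicate 2 (against 40.3%). The same 6 were open in both (50%, against 39.8% of all genes). The strongest was Clec4e (signal values 19.1 and 16.2 in replicates 1 and 2). None of 5 precursor genes, 5 natural killer cell genes, 6 monocyte genes or 6 erythroid genes was open in both replicates. B cell genes were open in both replicates at 5 of 9 promoters (55.6%, above the neutrophil share), T cell genes at 1 of 7 and platelet genes at 1 of 6. Some of their values were as high as that of Clec4e. The B cell gene Cr2 had 23.7 in replicate 1 and 17.0 in replicate 2, and the T cell gene Cd3d 16.9 and 17.8. In replicate 1 the counts were 7 of 9 for B cells, 3 of 7 for T cells, 2 of 5 for natural killer cells, 2 of 6 for platelets, 1 of 6 each for monocytes and erythroid cells, and 0 of 5 for precursors. The part of B cells or other cells in the Rab peaks was not tested. Replicate 1 had 27709 merged open regions and replicate 2 had 14548.

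The sequences at the summits of the regions that the results turn on are given here on the strand of each gene, 5′ to 3′, from GRCm38. Each holds the summit in replicate 1 and 50 bp to its left and right, shortened at its downstream end where it held over 30 exon bases. Capitals mark matches to fixed motif strings, searched on both strands; a match or its absence describes these letters and no bound factor. Promoter windows come first for the secretion genes Rab27a (its stronger region, chr9:73044237-73044337, and its weaker one at the start site, chr9:73044769-73044869), Rab37 (chr11:115154050-115154150), Rab3a (chr8:70754547-70754647), Rab3d (minus strand, chr9:21918225-21918325) and Rab44 (chr17:29114058-29114158). The next are strong promoters, at Rab29 (chr1:131867165-131867253), Rab30 (chr7:92741499-92741599), Rab7 (minus strand, chr6:88045270-88045370), Rab32 (minus strand, chr10:10558236-10558287) and Rab11a (minus strand, chr9:64737729-64737803). The last are distal windows in introns of Rab27a (chr9:73089699-73089799) and Rab8a (chr8:72169356-72169456). Genes not said to lie on the minus strand lie on the plus strand.
Rab27a stronger promoter region: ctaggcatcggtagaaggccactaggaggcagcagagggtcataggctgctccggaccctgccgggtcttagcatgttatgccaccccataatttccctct
Rab27a weaker promoter region: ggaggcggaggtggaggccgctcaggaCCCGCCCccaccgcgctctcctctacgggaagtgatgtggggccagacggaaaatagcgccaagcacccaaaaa
Rab37 promoter: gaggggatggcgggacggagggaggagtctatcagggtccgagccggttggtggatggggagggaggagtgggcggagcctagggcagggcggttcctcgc
Rab3a promoter: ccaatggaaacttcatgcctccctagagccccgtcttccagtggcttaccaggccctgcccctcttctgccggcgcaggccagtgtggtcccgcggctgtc
Rab3d promoter: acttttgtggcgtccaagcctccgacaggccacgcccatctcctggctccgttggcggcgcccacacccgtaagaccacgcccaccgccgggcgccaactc
Rab44 promoter: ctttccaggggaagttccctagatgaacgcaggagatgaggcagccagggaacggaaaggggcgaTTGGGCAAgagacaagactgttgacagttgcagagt
Rab29 promoter: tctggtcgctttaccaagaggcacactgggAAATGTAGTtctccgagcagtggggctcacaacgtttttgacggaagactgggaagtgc
Rab30 promoter: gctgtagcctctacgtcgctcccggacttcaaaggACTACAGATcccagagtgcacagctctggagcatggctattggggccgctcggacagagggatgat
Rab7 promoter: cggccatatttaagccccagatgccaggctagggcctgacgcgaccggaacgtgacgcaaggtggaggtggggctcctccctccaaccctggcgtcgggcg
Rab32 promoter: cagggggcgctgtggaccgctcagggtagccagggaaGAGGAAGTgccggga
Rab11a promoter: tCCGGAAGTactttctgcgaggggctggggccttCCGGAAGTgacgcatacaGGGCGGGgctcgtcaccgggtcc
Rab27a intron: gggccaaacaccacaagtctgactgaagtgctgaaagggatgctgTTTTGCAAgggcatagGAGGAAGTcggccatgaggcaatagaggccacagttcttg
Rab8a intron: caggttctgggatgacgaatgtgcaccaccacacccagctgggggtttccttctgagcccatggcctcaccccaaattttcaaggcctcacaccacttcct

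Rab32 held GAGGAAGT, a string preferred by the myeloid factor PU.1, at its promoter summit, and Rab44 held TTNNGCAA, a string bound by CEBP factors. Rab11a held CCGGAAGT, typical of ETS factors, in 2 places beside GGGCGGG, the string of SP and KLF factors. The weaker Rab27a region held GGGCGGG on its other strand. The intronic Rab27a region held both TTNNGCAA and GAGGAAGT, 8 bases apart. The stronger Rab27a promoter region, Rab37, Rab3a, Rab3d, Rab7 and the Rab8a intron held none of the 11 strings. Rab29 and Rab30 held ACTACANNT, the start of the string of the factor ZNF143, which was searched for after the Rab30 window had been read.

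Rab promoters were open in both replicates at 36 of 59 genes, or 61.0%, against 39.8% of all protein-coding genes. In replicate 1, 39 were open (66.1%, against 47.1% of all genes), and in replicate 2, 37 were open (62.7%, against 40.3%). The mean over the replicates was 64.4% ± 2.40 (SD, n = 2). The pooled conservative list, which keeps peaks passing IDR between the replicates, gave 40 open members (67.8%, against 46.7% of all genes). Another 3 members were open in replicate 1 alone, 1 was open in replicate 2 alone, and 19 had no promoter peak in either list, or 32.2%, against 52.4% of all genes.

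The share of open members lay above that of all genes within both classes of promoter sequence. CpG-rich promoters, which are open in many tissues, had at least 0.6 of the expected CpG and a GC share of 0.5 or more in the 500 bp flanks of the 5′-most start. Of the members, 36 had such a promoter (61.0%), against 44.4% of all genes. Of these 36, 27 were open in both replicates (75.0%), against 66.8% of all CpG-rich genes. Of the other 23 members, 9 were open (39.1%), against 18.2% of all other genes. The class describes the 5′-most start alone, and among the 9, Rab18 and Rab37 had replicate 1 summits 31207 and 62669 bp from it. Rab9 (0.593), Rab30 (0.595), Rab5b (0.577) and Rab5c (0.560) lay just under the CpG limit, and Rab29 (49.3% GC) under the GC limit. Rab27a (0.522) and Rab36 (0.520) lay lower, so the 9 are not clear cases of CpG-poor promoters. Genes of a family share ancestry and sequence, so these shares describe the family and no test was made of them.

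**Figure D1:**
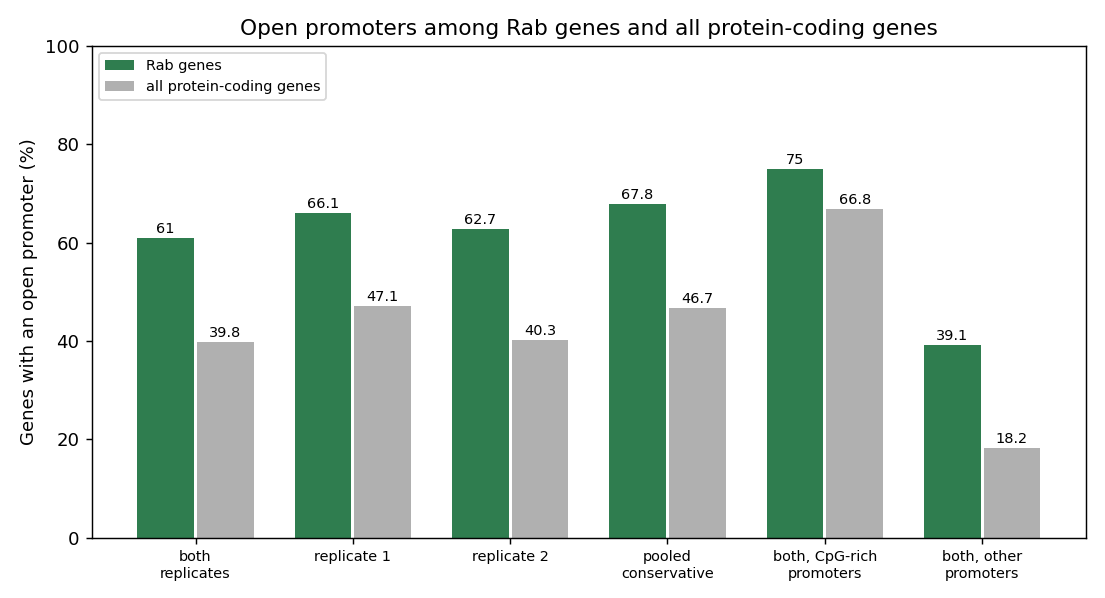
Share of genes with an open promoter (%, bars from 0) among the 59 Rab genes (green) and all 21911 protein-coding genes (grey), in both replicate lists, in each list, in the pooled conservative list and by promoter class. The Rab bar is the higher one in each of the 6 pairs, with 75.0% against 66.8% at CpG-rich promoters and 39.1% against 18.2% at the others.

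Members that were open had summits close to an annotated start. The median distance from the summit to the nearest start site was 54 bp in replicate 1 and 43 bp in replicate 2, against 62 and 58 bp for all genes with an open promoter. Summits of the replicates lay a median of 16 bp apart in the 36 members open in both, and in 31 of these within 50 bp. The strongest regions of the replicates overlapped in all 36. This agreement between the replicates was not computed over all genes open in both, so it describes the members alone. Regions of the members had median widths of 639 bp in replicate 1 and 554 bp in replicate 2, against 542 and 508 bp for all open genes. The median signal value of the 36 was 14.2 in replicate 1 and 15.9 in replicate 2, against 13.3 and 13.9 over all 8712 genes open in both. Replicate 2 had the higher value at 31 of the 36 members, with a median of replicate 1 minus replicate 2 of -1.39, against -0.76 for all such genes.

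Among the 9 Rab genes of regulated secretion and granule exocytosis, 4 were open in both replicates (44.4%, near the 39.8% of all genes). Another 2 were open in replicate 1 alone, and 3 had no promoter peak. Only 2 of the 9 had a CpG-rich promoter, and both were open in both replicates. All genes were open at 66.8% of CpG-rich and 18.2% of other promoters, so the 39.8% is not matched to the promoter class of this group. The 4 genes open in both replicates were Rab27a, Rab37, Rab3a and Rab3d. Rab27a, which docks granules at the plasma membrane and works in the release of neutrophil primary granules, had signal values of 11.3 in replicate 1 and 10.9 in replicate 2. These ranked 6199 of 10317 genes with a promoter region in replicate 1 and 6747 of 8827 in replicate 2, below the middle of both. The stronger Rab27a region, at chr9:73044152-73044460 in replicate 1, had its summit 567 bp upstream of the start site, and that of replicate 2 lay 575 bp upstream. A weaker region lay over the start site itself, with its summit 35 bp upstream and a signal value of 5.56, and was listed in replicate 1 and in the pooled list (6.49) but not in replicate 2.

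Rab37, a GTPase of mast cell granules and of cytokine secretion, had 11.0 in replicate 1 and 10.7 in replicate 2. Its peak lay at a downstream start site of a protein-coding transcript, with a summit 57 bp upstream of it in replicate 1 and 64 bp in replicate 2. That site is 62726 bp from the 5′-most start of the gene, which had no peak. Rab3a, best known from the docking of synaptic vesicles, had the highest values of the group, 14.2 and 15.2. Rab3d, found on secretory granules of exocrine and mast cells, had 10.8 in replicate 1 and 14.1 in replicate 2, the widest gap of these 4 genes. The values of Rab27a and Rab37 differed between replicates by less than 0.5 each.

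Rab44 and Rab26 had a promoter region in the list of replicate 1 alone. Rab44, a large Rab with calcium-binding EF hands that acts in mast cell degranulation, had 8.27 in replicate 1. In replicate 2 it had a peak of 5.68 in the less strict list alone, with a −log10 IDR of 0.77 against the threshold of 1.30. Rab26, which acts in the maturation of secretory granules, had 6.71 in replicate 1 and no peak in any replicate 2 list. Both passed IDR in the pooled conservative list, with 8.64 for Rab44 and 6.64 for Rab26. Rab3b and Rab3c, relatives of Rab3a in neurons and endocrine cells, and Rab27b, the Rab27 of platelets and secretory epithelia, had no promoter peak in the IDR lists. Rab3b had a less strict peak of 4.71 in replicate 2, and Rab3c and Rab27b had none in any ranked list.

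**Figure D2:**
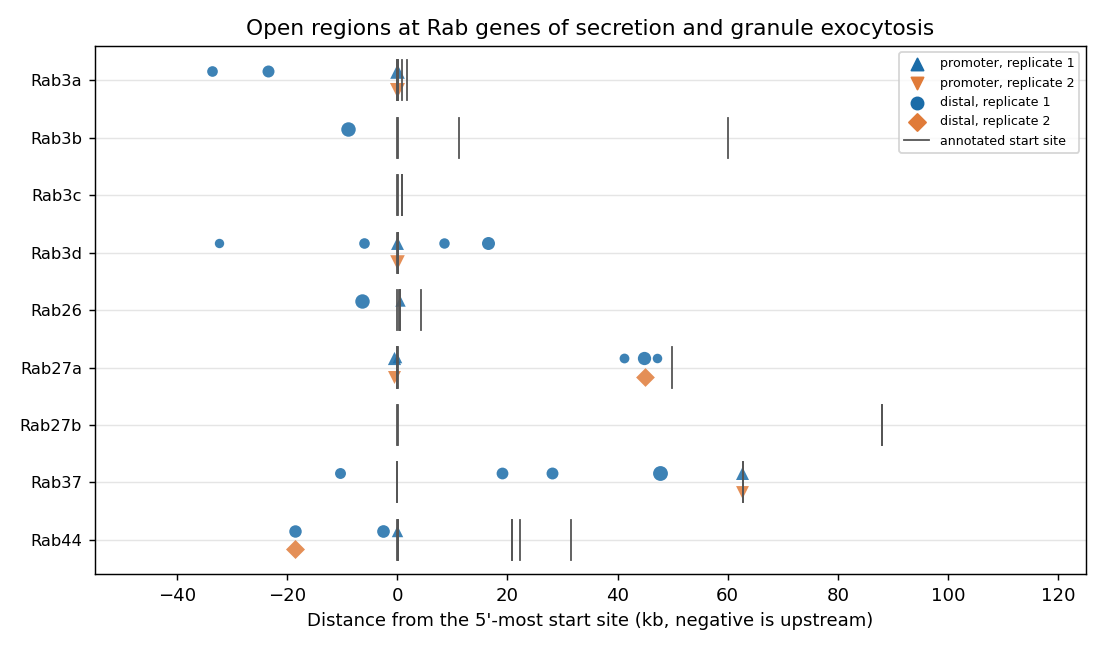
Open regions around the 9 Rab genes of secretion and granule exocytosis, by distance from the 5′-most start site (kb, negative upstream). Triangles are promoter regions and round or diamond points distal regions, blue for replicate 1 and orange for replicate 2, sized by signal value; vertical lines are annotated start sites. Rab27a and Rab44 have a distal region in both replicates, and the Rab37 promoter region lies at its downstream start site, 62726 bp into the gene.

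The early endosome and phagosome group had 5 of 7 genes open in both replicates (71.4%, against 39.8% of all genes). Of the 7, 5 had a CpG-rich promoter, and 3 of these 5 were open, against 66.8% of all CpG-rich genes. All 3 Rab5 genes, which drive the fusion of early endosomes and the first steps of phagosome maturation, were open, Rab5c with 18.1 in each replicate, Rab5b with 15.4 and 18.1, and Rab5a with 14.1 and 14.4. Rab22a, of the early and recycling endosome, had 14.8 and 15.9. Rab21, which carries integrins through endosomes, had 7.11 and 8.85, the lowest mean among the members open in both. Rab20, which acts on maturing phagosomes, and Rab31, the close relative of Rab22a on the route from the Golgi to endosomes, had no peak in the IDR lists. Each had a less strict peak in 1 replicate, of 5.14 for Rab20 in replicate 1 and 5.33 for Rab31 in replicate 2. Both have CpG-rich promoters.

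The recycling and surface delivery group had 9 of 13 genes open (69.2%, against 39.8% of all genes). The late endosome and lysosome group had 5 of 10 open (50%). Of the 13 recycling genes, 11 had a CpG-rich promoter, and 9 of these were open. Of the 10 late endosome genes, 4 had one, and 2 of these were open. The share of all CpG-rich genes was 66.8%. Open recycling genes were Rab4b, Rab8a, Rab8b, Rab10, Rab11a, Rab11b, Rab13, Rab14 and Rab35, with means over the replicates from 10.7 at Rab35 to 16.1 at Rab13. Rab4a, which returns receptors quickly to the surface, had no peak, while its paralog Rab4b had 15.4 and 16.8. Rab25, an epithelial relative of Rab11, had none, while Rab11a and Rab11b, the GTPases of the slow recycling route, had 15.0 and 16.3, and 14.5 and 17.0. Rab15, of endosomes in neural cells, and Rab17, of polarised epithelia, had none either. The Rab13 region shares its start with the ribosomal protein gene Rps27.

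The late endosome and lysosome group held 4 of the 5 strongest promoters of the family in the pooled list. Rab9, which returns mannose 6-phosphate receptors from late endosomes to the Golgi, had 21.7 in replicate 1 and 20.1 in replicate 2. Its pooled value of 23.0 was the highest of any member and ranked 269 of 10242 genes. Rab29, which acts at the Golgi and stressed lysosomes, had 19.5 and 21.9, and Rab32, of lysosome-related organelles, had 17.8 and 21.2. Rab7, which brings endosomes and phagosomes to lysosomes, had 17.4 and 20.8. Rab36, which positions late endosomes, had 12.1 and 10.6 and stood below these 4 in both replicates. Rab24, linked to autophagosomes, was open in replicate 2 alone with 8.83 and had 7.23 in the less strict list of replicate 1, at a start shared with Prelid1. Rab7b, Rab9b, Rab34 and Rab38 had no promoter peak in any ranked list, while Rab7, Rab9 and Rab32, close relatives of 3 of them, were open.

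The endoplasmic reticulum and Golgi group had 10 of 14 genes open (71.4%, against 39.8% of all genes). The remaining genes had 3 of 6 open (50%). Of the 14, 9 had a CpG-rich promoter, and 8 of these were open. Of the 6, 5 had one, and 3 of these were open, against 66.8% of all CpG-rich genes. Rab30, a Golgi GTPase, had 20.03 and 20.95 and ranked 509 of 10242 in the pooled list with 21.9. Rab2b, of transport between the endoplasmic reticulum and the Golgi, had 17.5 and 18.1 at a start shared with Tox4. Rab6a, of retrograde transport through the Golgi, had 15.5 and 16.1 at a start shared with Mrpl48. The other open genes were Rab1a, Rab1b, Rab2a, Rab18, Rab33b, Rab39 and Rab43, whose means ran from 9.89 at Rab43 to 15.9 at Rab18. Rab6b, Rab19, Rab33a and Rab39b had no peak in the IDR lists, and Rab33a had a less strict peak of 3.64 in replicate 1. Of the remaining genes, Rab28 (15.9 and 16.6), a Rab of cilia and photoreceptors, Rab12 (13.8 and 15.1), of endosomal degradation, and Rab40c (12.2 and 13.8), of a ubiquitin ligase, were open. Rab23, a regulator of Hedgehog signalling, was open in replicate 1 alone (8.81, with 9.13 in the less strict list of replicate 2, at a −log10 IDR of 0.61), 18970 bp from its 5′-most start and 720 bp from the start of a retained-intron transcript. Rab40b had no peak, and Rab42 had less strict peaks of 4.93 and 4.56.

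**Figure D3:**
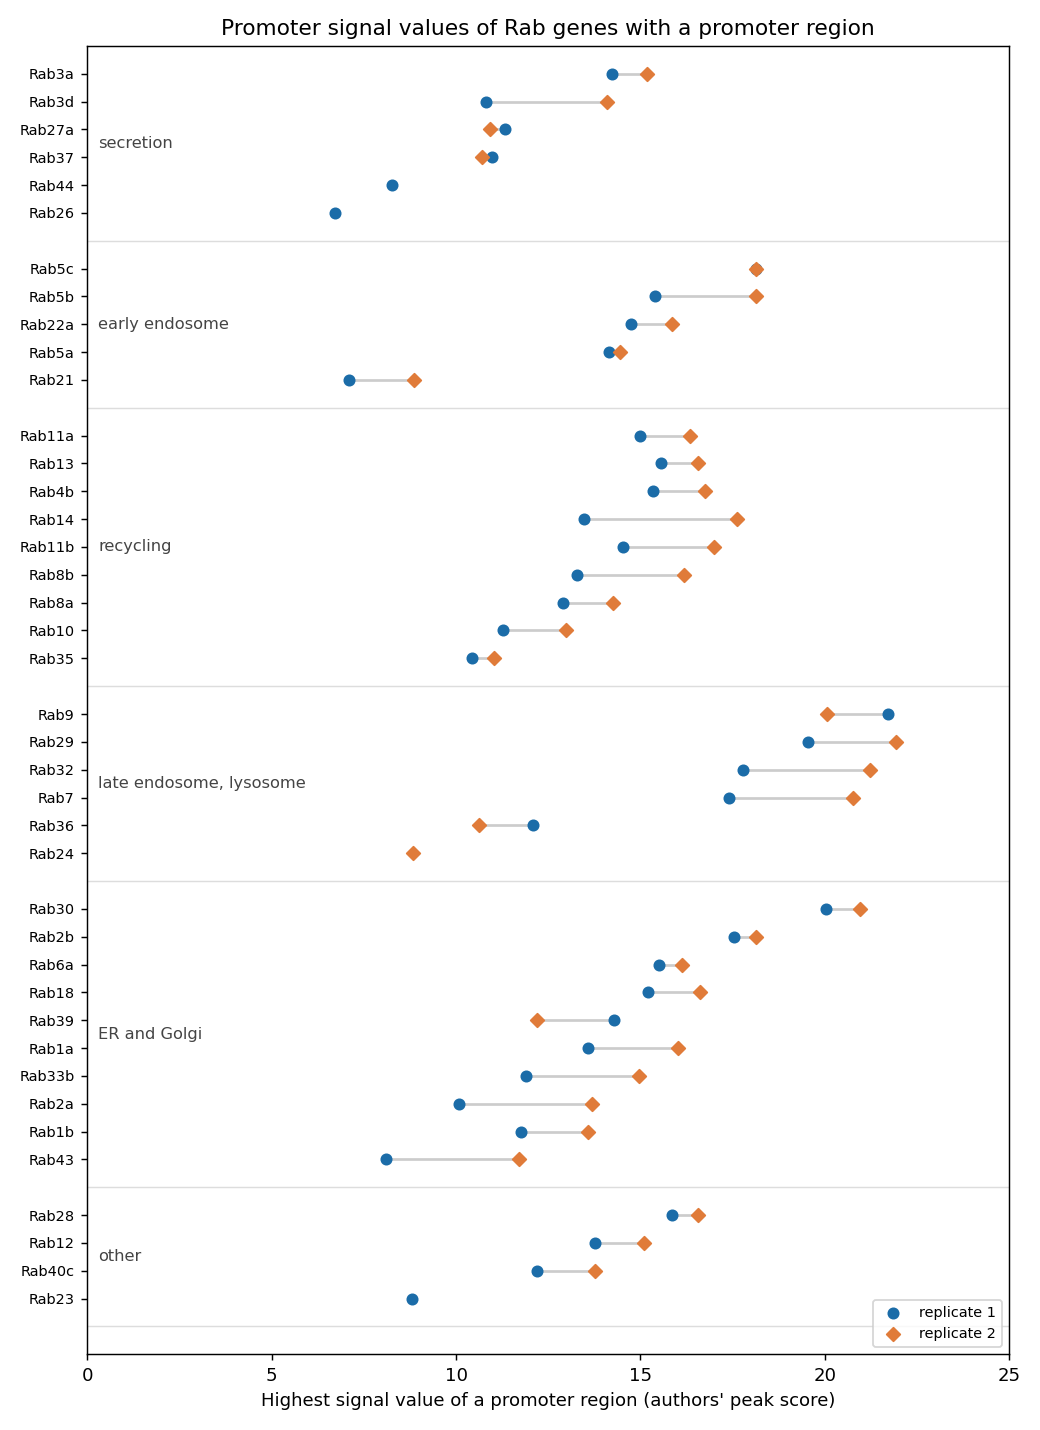
Highest signal value of a promoter region in replicate 1 (blue circles) and replicate 2 (orange diamonds) for the 40 Rab genes with a promoter region in either list, grouped by role and ordered within a role by the pooled conservative list. Rab9, Rab29 and Rab30 stand near 20 or above in both replicates, Rab27a and Rab37 near 11, and Rab26, Rab44, Rab24 and Rab23 have a point in 1 replicate alone.

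The 10 strongest promoters in the pooled list were those of Rab9, Rab29 (22.3), Rab30, Rab32 (20.3), Rab7 (19.9), Rab5c (19.6), Rab2b (19.3), Rab5b (17.7), Rab22a (17.3) and Rab6a (17.3). None of them belongs to the secretion group, whose highest pooled value was 15.3 at Rab3a. Next to the tenth stood Rab11a with 17.28, so the order at that end rests on small differences. Of 16 families of close paralogs, 4 had every gene open in both replicates, namely Rab1, Rab2, Rab5 and Rab8, and the other 12 had at least 1 open and at least 1 not open. No family was wholly without an open promoter. How many such families the overall share of open members would give was not worked out, so these counts describe the families alone. Rab9 and Rab9b, Rab33a and Rab39b lie on chromosome X, where 1 of 4 members was open. The share of all chromosome X genes was not computed, so nothing about the chromosome can be read from this count.

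Of the 19 members without a promoter peak in the IDR lists, 13 were in no ranked list of any kind, and none was in the pooled conservative list. Less strict peaks existed at 5, namely Rab3b, Rab20, Rab31, Rab33a and Rab42. Rab6b had 2.67 in the ranked pooled list alone. A CpG-rich promoter was present at 7 of the 19, which were Rab4a, Rab6b, Rab15, Rab20, Rab31, Rab34 and Rab40b. These counts were not made over all genes without a promoter peak, so they describe the members alone. The absence of a peak says that none passed at this unknown depth and does not show a closed promoter.

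The difference between Rab genes and all genes in their mean number of distal regions had opposite directions in the 2 replicates. The members had a mean of 1.51 distal regions in replicate 1 and 0.407 in replicate 2, or 0.958 ± 0.779 (SD, n = 2). All genes had 1.17 and 0.433, or 0.801 ± 0.521 (SD, n = 2). The members stood above all genes in replicate 1 and below them in replicate 2. The SDs hold the gap between the lists, which had 15565 distal regions in replicate 1 and 5521 in replicate 2. They do not measure the spread of the difference between members and all genes. At least 1 distal region in both replicates was present at 17 of 59 members, or 28.8%, against 27.7% of all genes. Of 89 pairs of a region and a member in replicate 1, 43 lay in introns, 36 in intergenic sequence and 10 in exons, and the member was the nearest gene for 43. In replicate 2, it was the nearest gene for 7 of 24. All 24 overlapped a region of replicate 1. The matching shares over all distal regions were not computed, so these counts of place, nearest gene and overlap describe the members alone.

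The 5 members with the most distal regions were Rab7 (6 in replicate 1 and 2 in replicate 2), Rab8a (5 and 3), Rab14 (5 and 1), Rab7b (4 and 2) and Rab19 (4 and 2). Rab7b and Rab19 had no promoter peak. Both regions of Rab7b that were open in both replicates lay in introns of the cathepsin E gene Ctse, the stronger with 16.3 in replicate 1 and 14.7 in replicate 2. Of the Rab19 regions, the strongest, 46874 bp upstream, had 16.6 and 12.2 and lay nearest to Slc37a3. At Rab7, a region 15538 bp upstream of the start, for which Rab7 was the nearest gene, had 15.6 and 9.24. Rab14, which carries vesicles between the Golgi and endosomes, had its replicated distal region in 1 of its own exons, with 8.58 and 6.23.

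Rab8a, which delivers vesicles from the Golgi to the surface, had the strongest replicated distal region inside its own gene among these 5. It lay in a Rab8a intron 8206 bp from the start, at chr8:72169158-72169703 in replicate 1, with 16.04 in replicate 1 and 15.2 in replicate 2. Its promoter had 12.9 and 14.3, so in both lists the intronic region scored above the promoter of the gene. Rab27a likewise had an intronic region, at chr9:73089334-73089961 in replicate 1, 44895 bp from the 5′-most start. Its signal value was 11.5 in each replicate, and its summits in the replicates lay at 44895 and 44901 bp. The nearest annotated Rab27a start, that of a retained-intron transcript, is 5084 bp further downstream, and the gene with the nearest 5′-most start is Khdc3. Another 2 intronic Rab27a regions, with 5.86 and 5.51, were listed in replicate 1 and not in replicate 2, and the weaker of them was also in the pooled conservative list (6.30).

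The other secretion genes had distal regions mostly in replicate 1. Rab44 had a region 18573 bp upstream in an intron of Cdkn1a, with 9.99 in replicate 1 and 11.8 in replicate 2, and a region 2654 bp upstream with 10.4 in replicate 1 alone. Rab37 had 4 in replicate 1 and none in replicate 2, but 5 in the pooled conservative list. The strongest of replicate 1, with 14.8, lay in its own intron 47651 bp from the 5′-most start and was nearest to Cd300lf. Another, 28156 bp from that start, lay inside both Rab37 and Cd300lf. Rab3d had 4 and none, Rab3a 2 and none, and Rab26 and Rab3b 1 and none. The pooled conservative list held 2 each for Rab3d and Rab3a and 1 each for Rab26 and Rab3b. Rab3b, which had no promoter peak, had its distal region 8881 bp upstream, with 13.9. No distal region was listed near Rab3c or Rab27b.

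**Figure D4:**
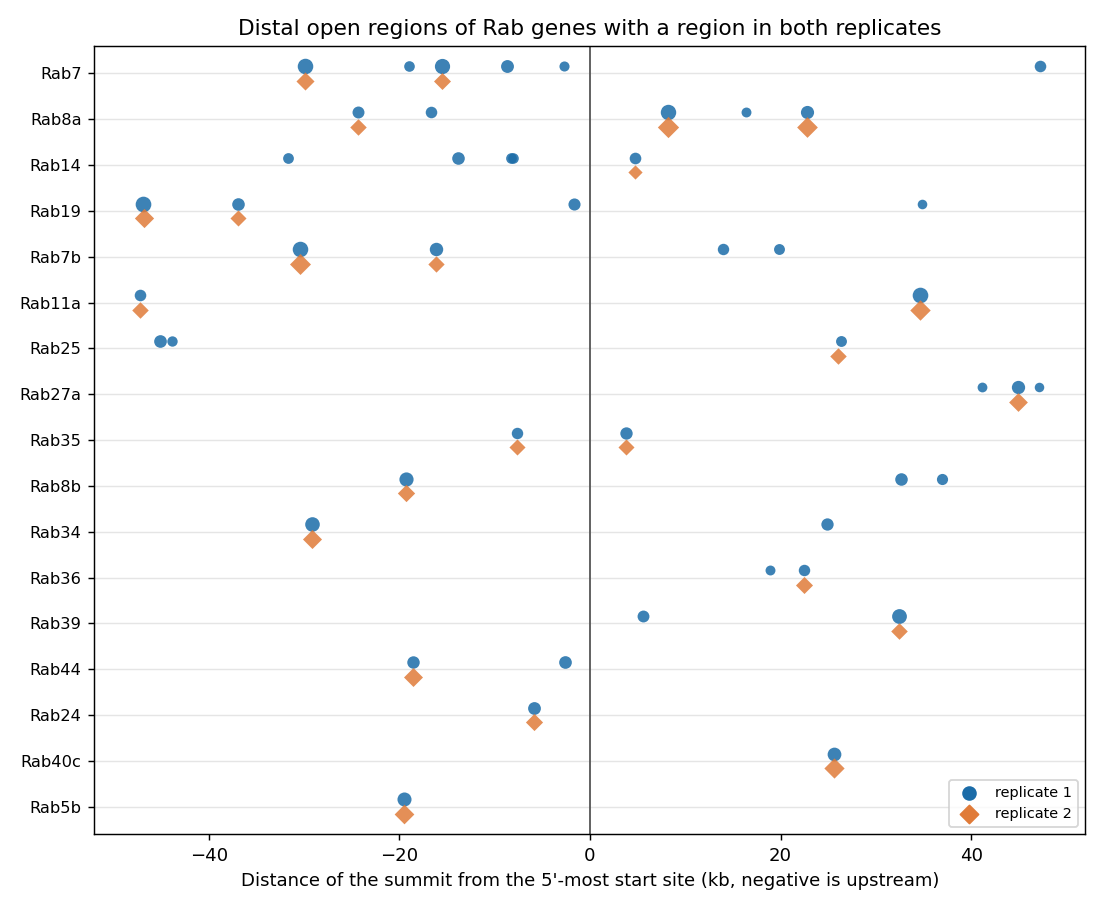
Distal regions of the 17 Rab genes with at least 1 in each replicate, by the distance of the summit from the 5′-most start site (kb, negative upstream), in replicate 1 (blue circles) and replicate 2 (orange diamonds), sized by signal value and ordered by the number of regions. All 24 regions of replicate 2 overlap a region of replicate 1 (the share over all distal regions was not computed). Rab7 and Rab8a, at the top, have 8 points each.

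The motif strings were counted in the windows of 101 bp at the strongest promoter summits, 39 of members in replicate 1 and 37 in replicate 2, against 9116 and 7668 distinct windows over all genes. GGGCGGG was present in 28.2% of member windows in replicate 1 and 43.2% in replicate 2, or 35.7% ± 10.6 (SD, n = 2), against 28.4% ± 4.52 over all genes. GCCAAT, the string of the factor NFY, was present in 10.5% ± 0.392 of member windows, against 15.5% ± 0.835 over all genes (SD, n = 2). CCGGAAGT was present in 6.62% ± 2.11, against 6.41% ± 0.538 (SD, n = 2), at Rab11a and Rab36 in both replicates and at Rab24 in replicate 2. GAGGAAGT was present at Rab32 alone in each replicate, or 2.63% on average, against 2.29% over all genes. CCGGAAGT and GAGGAAGT share the bases GGAAGT but differ in the bases before them (CC and GA), and so cannot match at the same place.

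TTNNGCAA was present at 2 members in replicate 1, Rab44 and Rab1b, and at none in replicate 2, or 2.56% on average against 2.88% over all genes. TGACGT, the core of the cAMP response element, was present at Rab21 and Rab39 in both replicates, or 5.27% against 8.66%. AANATGGCG, the string of YY1, averaged 3.92% against 2.31%, and CACGTG, the E-box, 2.70% against 4.56%. GCGCATGCG (NRF1), TGTGGTT (RUNX) and TGANTCA (AP-1) were present in no member window, against 1.54%, 1.42% and 1.94% over all genes. A single member changes these shares by over 2 points, so none of these differences can be read from 39 and 37 windows. ACTACANNT was present at Rab29 and Rab30 in both replicates and at Rab1b in replicate 1, in 7.69% and 5.41% of member windows against 4.05% and 4.08% over all genes. The string was chosen after reading the Rab30 window, printed for its strong promoter, so the Rab30 match and its high rank were given beforehand. In the pooled list Rab9 alone among the members scored above Rab29 and Rab30, whereas Rab1b, with 12.5, ranked 6276 of 10242 genes. No excess of the string and no link with signal value can be drawn from these members.

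In distal windows, GAGGAAGT was present in 8 of 89 member regions in replicate 1 (8.99%) and 4 of 24 in replicate 2 (16.7%), against 8.29% and 9.36% of all distal regions. TTNNGCAA was present in 6 of 89 (6.74%) and 1 of 24 (4.17%), against 6.39% and 6.86%. TGANTCA, absent from member promoters, was present in 8 of 89 (8.99%) and 2 of 24 (8.33%) member regions, against 6.69% and 7.66% of all distal regions.

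Genes that act on or bind Rab proteins, counted with genes of granule fusion, were open in both replicates at 70 of 115 promoters. This was 60.9%, against 39.8% of all genes. The shares of these lists are not split by promoter class. Of 8 genes on the list for the lipid anchor and the recycling of Rab proteins, 7 were open. The strongest were the escort protein gene Chm (25.5 in replicate 1 and 17.1 in replicate 2), the transferase subunit gene Rabggtb (18.6 and 18.1) and Rabif (14.6 and 19.3). A place on this list does not state the function of a gene, as for Rabif. Of 33 exchange factor genes, 24 were open, led by Dennd6b (19.4 and 20.9), Ccz1, part of the Rab7 exchange factor (16.4 and 17.4), and Rabgef1, of Rab5 (16.1 and 16.8). Dennd2a, Rab3il1 and Rin1 had no promoter peak in the IDR lists of the replicates. Of 31 GTPase-activating protein genes, 18 were open, led by Rabgap1 (22.9 and 22.4), Tbc1d10a (20.3 and 20.1), which acts on Rab27a, and Tbc1d22b (18.5 and 18.1). Sgsm1, Sgsm3 and Tbc1d16 had none in these lists.

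The list of Rab27 effectors and granule fusion genes was the least often open of the 5, at 5 of 19 (26.3%, against 39.8% of all genes). The 5 were the SNARE genes Vamp3 (16.6 and 20.9), Stx4a (10.3 and 10.5) and Stx11 (8.68 and 7.94), the syntaxin partner gene Stxbp2 (11.2 and 15.5) and Unc13d (7.49 and 8.13), which encodes the granule priming factor Munc13-4 that binds Rab27a. In the IDR lists of the replicates no promoter peak was listed at the 5 synaptotagmin-like effector genes Sytl1 to Sytl5, nor at Exph5, Mlph, Myrip, Rph3al and Stx3. Sytl1, the effector of this family best known in leukocytes, had 3 distal regions in replicate 1 and none in replicate 2. Snap23 (7.43) and Vamp8 (9.91) were open in replicate 1 alone, and Vamp2 (9.82) and Myo5a (10) in replicate 2 alone. The direction turned in the less strict lists, with 10 of 19 open (52.6%, against 49.8% of all genes), and peaks at or above the median signal value of each list gave 2 (10.5%, against 30.4%). Of 24 other effector genes, 16 were open, led by the golgin genes Gcc2 (24.5 and 24.8) and Golga2 (17.3 and 20.7) and the endosomal tether gene Rbsn (15.5 and 22.2), with none in these lists at Appl2, Micall1 and Ocrl.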

How the data were processed

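Only peak lists of the 2 libraries were used. Per the file headers, the authors deposited for each replicate an IDR thresholded list, used as the main list, a less strict pseudoreplicated list and a ranked list, and pooled lists from both replicates. Each peak carries a signal value, a score the authors deposited with no stated definition, and a −log10 p whose test the file headers do not name. Column 12 of the ranked lists is a −log10 IDR score, per the file headers; peaks passing 0.05 have at least 1.30. For the aligner, the peak caller and their versions, the sources used here give nothing. The labels give the build as mm10, and the GRCm38 sequence with GENCODE M21 was used without conversion.

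Overlapping intervals were merged into regions with the highest signal value and its summit. Overlap needed 1 bp. Gene duplicates with 1 symbol were counted once. Computations used Python 3.11.15, NumPy 2.4.6, pysam 0.24.0 and samtools 1.23.1, and figures matplotlib 3.10.9. The overlap counts were tested on simulated regions first. Members and lists were chosen with earlier results of these data known, and the ZNF143 string after reading a window. Named were all secretion genes, the 10 strongest pooled promoters, the 5 with most distal regions, members open in 1 replicate, those with no peak, paralogs that differ, and for each pathway list the 3 strongest genes and 3 in alphabetical order with no peak; others are named after their values were seen. The value of 1 gene of the pathway lists is not reported here. Vamp7 did not match a gene of the annotation under this symbol. With 1 group of 2 samples no test was made; values are given as means ± SD. No column was left out for lack of a sample. Alternatives were other lists, stronger peaks, promoter and distal widths, start sites, motif windows and each replicate alone.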

Additional observations from a re-analysis of the deposited data

How the results depend on the processing

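The number of Rab promoters open in both replicates, 36, ran from 32 (peaks at or above the median signal value of their list) to 40 (less strict lists and both pooled lists), and was 34 with the 5′-most start site alone. The members' share exceeded that of all genes under each of these settings, with 54.2% against 30.4% at the strongest peaks and 67.8% against 49.8% in the less strict lists. The count was 39 without replicate 2 and 37 without replicate 1. The mean number of distal regions moved to 2.03 with the less strict lists (1.69 over all genes) and 2.08 with a window of 100 kb (1.55 over all genes); leaving out a replicate gave 0.407 to 1.51. Without replicate 1 the members fell below all genes, at 0.407 against 0.433; in the other settings they stood above. The Rab27 effector list, at 5 of 19, gave 8 in the pooled conservative list (42.1%, against 46.7% of all genes), 9 in the pooled optimal list (47.4%, against 49.7%), 10 in the less strict lists (52.6%, against 49.8%, so the direction turned) and 2 at the strongest peaks; the cause was not tested. Motif windows widened to 200 bp flanks hold more of each string by construction, with GGGCGGG at 59.2% of members against 54.5% of all genes and AANATGGCG at 17.2% against 8.87%, while TGANTCA stayed at 0% of members against 5.79%. The direction turned for TGTGGTT (7.90% against 4.96%), GCGCATGCG (5.27% against 4.25%) and CCGGAAGT (9.25% against 11.0%). No paired analysis was possible because there was 1 group. Depth is unknown, the signal value has no stated definition, and 2 libraries of 1 donor record cannot show spread between mice.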
